A study of Mus musculus with 14 samples.

Results

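Immediate early genes are transcribed within minutes of a stimulus, without new protein synthesis, from promoters that are already open. Growth factor, cytokine, calcium and stress signals reach them through MAP kinases and through the transcription factors CREB, SRF and the ETS proteins. Many of their products are transcription factors that switch on a later set of genes, and others are inhibitors that end the signal. In macrophages they respond to microbial products, adhesion and phagocytosis, and they also respond to the enzymatic digestion and sorting that precede most studies of lung cells.

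The set described here held 10 genes, listed by symbol and chosen with earlier results of these data known. They were the AP-1 subunits Fos, Fosb, Jun, Junb and Jund, the zinc finger factor Egr1 and the stress-inducible factor Atf3. The others were the MAP kinase phosphatase Dusp1 and the early response genes Ier2 and Ier3. Each symbol matched 1 row of a table of 43432 genes. All 10 passed the minimum set for testing, which was 10 normalized counts in 2 or more libraries and which 17390 genes met.

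RNA-seq was made from lung cells of male 129S1 mice aged 10 to 12 weeks that had received bleomycin (labelled 3 U/k), a drug that injures the lung and is followed by fibrosis, or water into the trachea. Cells positive for SiglecF and CD11c, the usual surface pattern of alveolar macrophages, were sorted as MHC class II (MHCII) high or low. After bleomycin, each sorted fraction had 3 libraries at 2 weeks and 3 at 4 weeks. Control mice gave 2 libraries, both of MHCII-low cells and numbered 1 and 3. No MHCII-high control group was part of the analysis, so bleomycin and control could be compared in the MHCII-low fraction only. The labels do not say whether libraries came from single or pooled mice, so the p-values measure the spread between these libraries, which may in part be technical. Sorting was done on one of 2 instruments, and the labels do not say which for a given library.

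Reads recovered per library ranged from 15106420 to 88059617, and mitochondrial ribosomal RNA took 3.12% to 29.0% of them. At 2 weeks that share did not overlap between the sorted fractions, at 22.5% to 26.2% in MHCII-high and 3.42% to 18.3% in MHCII-low libraries. The summed level of 12 resident alveolar macrophage markers was 338316 to 592038 normalized counts over the 14 libraries, and none of the 12 was at 0 throughout. In the mean of both weeks 8 of the 12 were called lower in MHCII-high cells (Marco, Krt79, Siglecf, Fabp1, Ear1, Car4, Pparg and Chil3) and none higher, with a list median of -0.50. Siglecf, whose protein defined the sort, had a mean of 3520 in the MHCII-high against 6785 in the MHCII-low fraction at week 2. Markers of other cells moved with the MHCII gate. The summed level of 7 dendritic cell markers was 895 to 2012 in MHCII-high and 81.0 to 189.5 in MHCII-low libraries after bleomycin, and 6 of the 7 were called higher in the mean of both weeks. The summed level of 11 monocyte-derived macrophage markers was 68826 to 84089 in MHCII-high and 30410 to 36398 in MHCII-low cells at 2 weeks, and 38300 to 47137 against 17967 to 22547 at 4 weeks, with 8 of 11 called higher. Of 9 alveolar epithelium markers, Sftpc, Lamp3 and Sftpa1 were called higher and Scgb1a1 lower. The epithelial sum was 10899 to 21034 in MHCII-high and 9738 to 32400 in MHCII-low libraries after bleomycin. Among the lymphocyte markers reported here, the B cell genes Cd79a, Cd79b, Ms4a1 and Ighm were called higher and Cd2 lower. At week 4 the mean of Cd2 was 11240 in the MHCII-low and 7881 in the MHCII-high fraction. The part of these cells in the results on the early genes was not tested, and the mitochondrial share was entered as a covariate in an alternative fit. In sorted bulk samples a different make-up of cells and a different level of RNA per cell cannot be told apart.

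The upstream sequences of Fosb, Fos and Jun are shown because Fosb and Jun followed each other across libraries while Fos did not follow Fosb between the sorted fractions. Each is the run of 250 bases before the start given by RefSeq (GRCm38.p6), written along the strand of the gene. Capitals mark TGACG, the core of a CREB or ATF site, or TGACATCA, a site known to bind Jun and ATF2 dimers. Fosb lies on chromosome 7 (chr7:19302696-19310051, minus strand, GRCm38), Fos on chromosome 12 (chr12:85473890-85477273, plus strand) and Jun on chromosome 4 (chr4:95049034-95052222, minus strand). The windows are chr7:19310046-19310295, chr12:85473640-85473889 and chr4:95052223-95052472.
Fosb: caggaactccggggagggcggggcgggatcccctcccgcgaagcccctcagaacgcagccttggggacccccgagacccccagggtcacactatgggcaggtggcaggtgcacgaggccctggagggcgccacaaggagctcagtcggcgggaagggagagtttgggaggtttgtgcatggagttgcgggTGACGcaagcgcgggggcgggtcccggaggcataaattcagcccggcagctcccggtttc
Fos: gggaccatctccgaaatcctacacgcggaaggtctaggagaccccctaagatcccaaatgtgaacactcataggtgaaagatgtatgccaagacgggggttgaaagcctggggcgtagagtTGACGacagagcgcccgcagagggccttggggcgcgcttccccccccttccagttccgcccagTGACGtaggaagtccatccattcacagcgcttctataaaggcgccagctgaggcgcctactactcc
Jun: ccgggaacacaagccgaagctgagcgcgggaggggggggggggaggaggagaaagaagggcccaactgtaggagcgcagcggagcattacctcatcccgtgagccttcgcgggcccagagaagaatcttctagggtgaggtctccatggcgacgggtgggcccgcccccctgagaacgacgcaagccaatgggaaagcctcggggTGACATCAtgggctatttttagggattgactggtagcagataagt

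Fosb held 1 TGACG, 60 bases before its start, and Fos held 2, at 129 and 66 bases. Jun held no TGACG and 1 TGACATCA, 45 bases before its start. Windows of 8 of the 10 genes were read, and each motif was read on both strands. Ier2 had no window. Chromosome 18, which holds Egr1, was left out for the set but not for the comparison windows below. The window of Jund lies wholly upstream of the gene start in the deposited table. That of Atf3 (chr1:191183334-191183583, minus strand) lies wholly inside the deposited gene, which ends at 191218039. TGACG lay in 5 of the 8 windows and in 17.8% of all 32851 promoter windows of the same length. The full site TGACGTCA, which contains TGACG on both strands, lay in 1 of the 8, that of Dusp1, and in 1.55% of all windows. GGGCGG, the GC box, lay in 6 of 8 and in 32.7% of all. TGANTCA, the AP-1 site, lay in none of the 8 and in 6.75% of all windows. These matches describe the letters in the windows and are not measured sites.

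The 10 genes shared a compact form that the choice of symbols did not use. Of these, 9 had a deposited span below the median of the tested genes (17623 bases), from 1240 bases for Ier3 to 7356 for Fosb. Atf3 was the exception with 47744, a span that reaches upstream of the RefSeq start used for its window. All 10 were richer in G and C than the median tested gene (46.0%), from 46.2% for Atf3 to 67.2% for Jund. The annotation gives a single exon to Jun, Junb, Jund and Ier2. The motif TATTTAT, a core of the AU-rich elements that mark short-lived mRNAs, was in the 3′ UTR of 7 of the 10 genes, against 29.1% of 13975 tested genes with an annotated 3′ UTR. Ier3 held 4 copies, Dusp1 held 3 and Fos held 2. For Jund the deposited exon length, 2878 bases, exceeds the deposited span of 1668. Its RefSeq start follows chr8:70697738, upstream of the deposited start at 70698949. The deposited span and GC of Jund may therefore leave out part of the gene. The spans of Jun, Junb, Jund and Atf3 each overlap that of a gene on the opposite strand. Whether exons overlap was not checked, and Junb has 1840 bases of exon in a span of 4235. The strand setting of the counting is not given in the sources used here. Reads of Junb and of its neighbour Prdx2, which had a mean of 705 normalized counts, may therefore be mixed if their exons overlap.

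All 10 genes were expressed in every library, control cells included. Divided by exon length, the mean level over the 14 libraries was highest for Dusp1, at 6704 normalized counts per kb, above 99.2% of the tested genes. Fos followed at 1645 per kb and Jun at 1106 per kb. Junb (560.2) and Fosb (541 per kb) came next, and Ier2 (142) and Ier3 (137 per kb) were lowest, still above 62.6% and 61.9% of tested genes. The fewest reads behind any value were 61, for Ier3. The within-group SD of the log2 level was 0.58 for Fosb and 0.57 for Dusp1, wider than the 0.36 of the median gene. Jund, which is the constitutive Jun family member, had 0.17, and only 7.87% of genes had less.

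**Figure D1:**
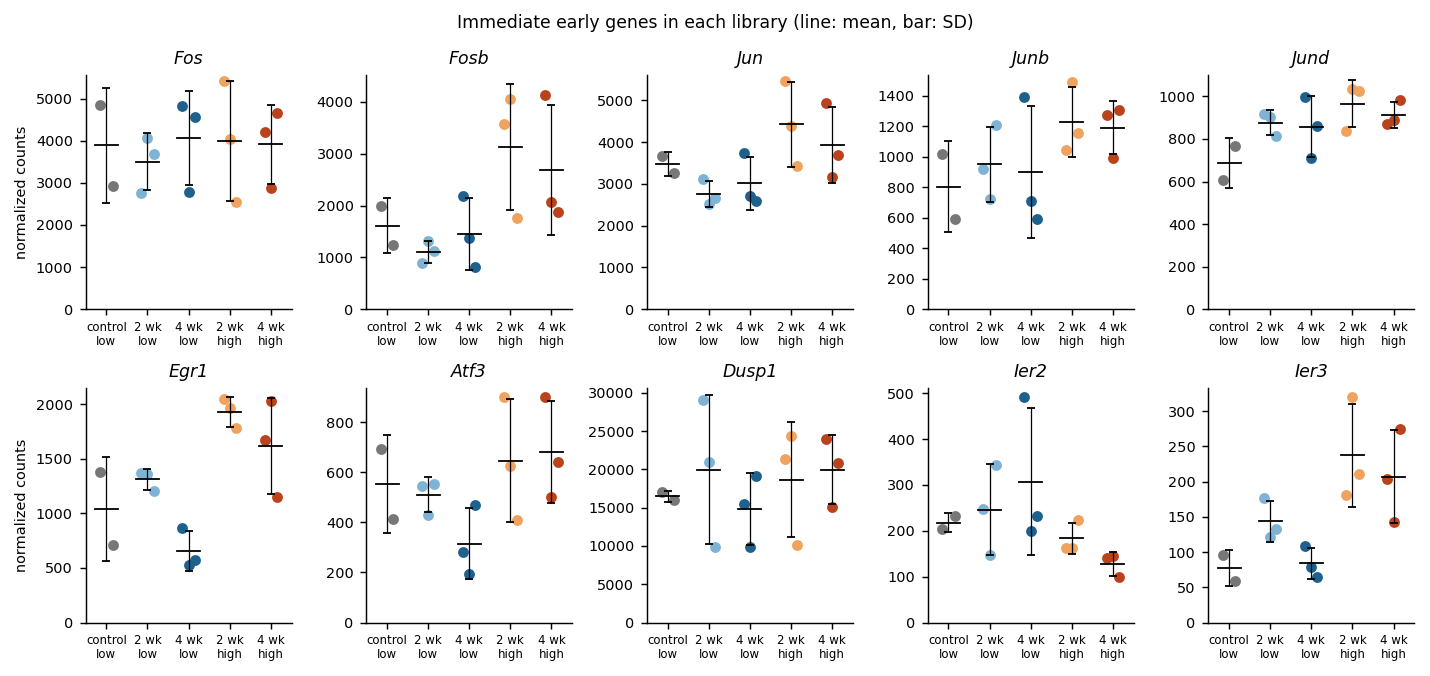
Normalized counts of the 10 immediate early genes in each of 14 libraries, by group. Points are libraries, the horizontal line is the group mean and the bar the SD (n = 3, or 2 for control). Fosb, Jun, Junb, Jund, Egr1, Atf3 and Ier3 have their 2 highest means in MHCII-high cells, while Fos and Dusp1 overlap across all 5 groups.

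The question of the sort is how MHCII-high cells differ from MHCII-low cells after bleomycin. Over the mean of both weeks, Fosb rose 1.17 ± 0.25 (log2 fold change ± SE), Egr1 rose 0.93 ± 0.18 and Jun rose 0.52 ± 0.14, with limma adjusted p of 0.0047, 0.0025 and 0.028. No other gene of the set passed the threshold of 0.05, although 9 of the 10 had a positive estimate. The exception was Ier2, at -0.76 ± 0.30. These 3 calls among 10 stand beside 7.21% of all tested genes called in this comparison. Of all tested genes, 5% were called higher and 2.21% lower. The median log2 fold change of the set was 0.48, and that of all tested genes was 0.02.

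Fosb encodes an AP-1 subunit that pairs with Jun proteins, and its splice form lacking the end of the protein is unusually stable. At 2 weeks its level in the 3 MHCII-high libraries was 3579, 4063 and 1758 normalized counts, and in the 3 MHCII-low libraries 891, 1315 and 1120. At 4 weeks it was 4129, 2060.0 and 1882 in MHCII-high and 2184, 1379 and 807 in MHCII-low cells. The 2 control libraries held 1986 and 1242. The fractions did not overlap at 2 weeks, and at 4 weeks the highest MHCII-low library lay above 2 of the 3 MHCII-high ones. The difference at 2 weeks was 1.43 ± 0.35 (limma adjusted p = 0.027). Fosb was the 1 gene of the set called there, beside 2.87% of all tested genes (2.29% higher and 0.581% lower). At 4 weeks it was 0.91 ± 0.35 (adjusted p = 0.21). The change of the difference between weeks, tested as an interaction, was -0.52 ± 0.49 (adjusted p = 0.96).

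The Fosb call at 2 weeks rests on few libraries. Without MHCII-high replicate 2 its limma adjusted p was 0.18, without MHCII-high replicate 1 it was 0.14, and without MHCII-low replicates 1 or 3 it was 0.15 or 0.062. With the mitochondrial ribosomal share as a covariate it was 0.058. Over 25 alternative settings adjusted p ranged from 0.0014 to 0.18, and the lowest estimate was 1.195. For the mean of both weeks the Fosb call held under all 25.

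Egr1 is a zinc finger factor induced through SRF and ETS sites. It was called higher in MHCII-high than in MHCII-low cells at 4 weeks and in the mean of both weeks. At 2 weeks the MHCII-high libraries held 2049, 1965 and 1778 normalized counts, and the MHCII-low libraries 1365, 1363 and 1201. At 4 weeks the MHCII-high libraries held 1671, 2030.2 and 1149, against 867, 529 and 572 in MHCII-low cells. The 2 control libraries, at 1378 and 707, were far apart and enclosed every MHCII-low value except the 529 and 572 of week 4. Every MHCII-high library lay above every MHCII-low library of the same week. The difference was 0.56 ± 0.26 at 2 weeks (adjusted p = 0.30) and 1.30 ± 0.26 at 4 weeks (limma adjusted p = 0.0059). Egr1 was the 1 gene of the set called at 4 weeks, where 2.5% of all tested genes were called (1.96% higher and 0.535% lower). The interaction was 0.74 ± 0.37 (adjusted p = 0.88), so a larger difference at 4 than at 2 weeks was not shown. The Egr1 calls at 4 weeks and over both weeks held under all 25 alternatives.

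Jun is the AP-1 subunit that binds DNA with Fos proteins or with itself. It was 5467, 4380.2 and 3437 normalized counts in MHCII-high and 3115, 2510 and 2669 in MHCII-low libraries at 2 weeks. At 4 weeks it was 4945, 3176 and 3693 against 3736, 2701 and 2598, and the controls held 3671 and 3270. The fractions were apart at 2 weeks and overlapped at 4 weeks. The difference was 0.66 ± 0.20 at 2 weeks (adjusted p = 0.086) and 0.38 ± 0.20 at 4 weeks (adjusted p = 0.39). At 2 weeks it passed with the mitochondrial share as a covariate (0.029), by DESeq2 (0.033) and without MHCII-high replicate 3 (0.046), over a range of 0.029 to 0.35. The call over both weeks was lost with any of 7 single libraries left out (MHCII-low replicates 2 and 3 at either week, MHCII-high replicates 1 and 2 at 2 weeks and 1 at 4 weeks), with adjusted p up to 0.093, and with no filter on low values (0.070).

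**Figure D2:**
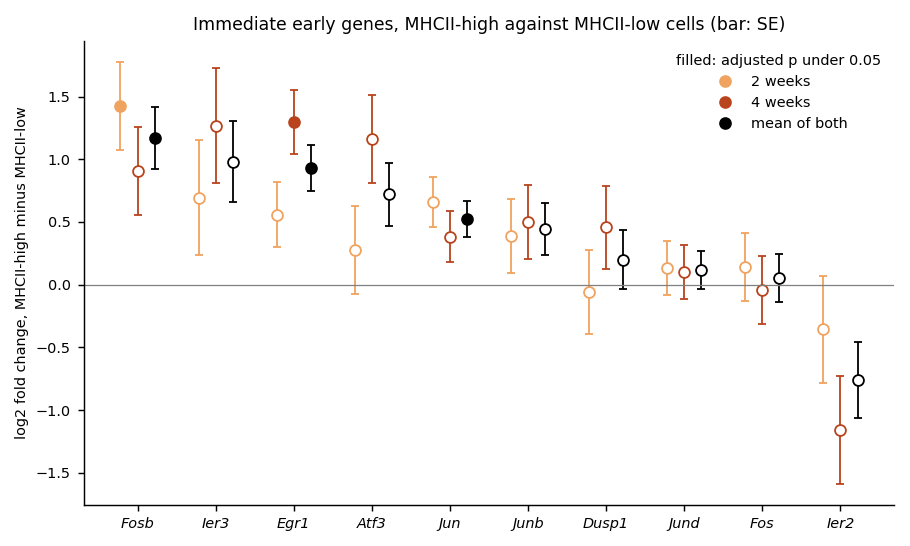
Log2 fold change of MHCII-high over MHCII-low cells for each immediate early gene at 2 weeks, at 4 weeks and in the mean of both, from limma on log2(value + 1). Bars are standard errors, and filled points have an adjusted p under 0.05. Fosb is filled at 2 weeks, Egr1 at 4 weeks, and Fosb, Egr1 and Jun in the mean.

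Fos, the partner most often measured beside Jun, showed no difference by the same test. Its MHCII-high libraries held 5408, 4030 and 2546 normalized counts at 2 weeks and 4196, 2873 and 4664 at 4 weeks. Its MHCII-low libraries held 2748, 4061 and 3692 at 2 weeks and 4833, 2779 and 4565 at 4 weeks, and the controls 4850.1 and 2925. All 5 groups overlapped. The difference over both weeks was 0.05 ± 0.19 (limma adjusted p = 0.92), and its sign changed with the scaling and with single libraries left out. Expressed per exon length and within each library, Fosb was 49.3% ± 12.1 (SD, n = 3) of Fos in MHCII-high cells at 2 weeks and 44.0% ± 18.2 at 4 weeks. In MHCII-low cells it was 19.9% ± 0.75 at 2 weeks and 23.5% ± 10.9 at 4 weeks, and in control cells 26.2% ± 0.68 (n = 2). One MHCII-high library at 4 weeks, at 25.3%, lay within the range of the MHCII-low cells of that week, 11.1% to 31.1%. This ratio was chosen after its values were seen and was given no test.

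**Figure D3:**
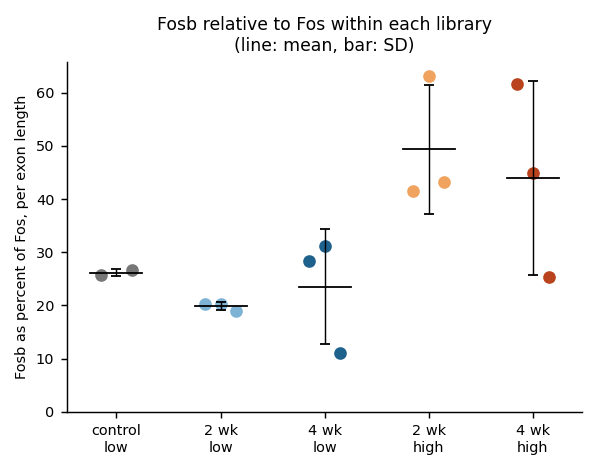
Fosb as a percent of Fos in each library, both divided by exon length. Points are libraries, lines are group means and bars are SD (n = 3, or 2 for control). The 2-week MHCII-low libraries lie together at 19.0% to 20.3%, and 5 of the 6 MHCII-high libraries lie above every MHCII-low and control library.

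Atf3, which is induced by stress and by Toll-like receptor signals and restrains inflammatory genes, was 901, 627 and 410.1 normalized counts in MHCII-high and 546, 432 and 555 in MHCII-low libraries at 2 weeks. At 4 weeks it was 901, 501 and 640.2 against 280.4, 193 and 470.2, with no overlap. The 4-week difference was 1.16 ± 0.35 (limma adjusted p = 0.089), which missed the threshold. It passed with the mitochondrial share as a covariate (0.021), without MHCII-low replicate 3 (0.044) and by DESeq2 on recovered reads (0.044), over a range of 0.021 to 0.32 among the alternatives. Over both weeks it was 0.72 ± 0.25 (limma adjusted p = 0.085), and it passed under the same settings and without MHCII-high replicate 3 of week 2, over a range of 0.024 to 0.21.

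Ier3, an early response gene that acts on cell survival, was 181, 319.5 and 210.2 normalized counts in MHCII-high and 177, 121 and 133 in MHCII-low libraries at 2 weeks. At 4 weeks it was 204, 143 and 274 against 108, 79.4 and 65.0, and the controls held 95.8 and 59.4. Its fractions did not overlap at either week. The difference was 0.69 ± 0.46 at 2 weeks and 1.27 ± 0.46 at 4 weeks (limma adjusted p = 0.51 and 0.18), and 0.98 ± 0.32 over both (adjusted p = 0.071). It passed at 4 weeks with the GC trend removed (0.038) and by DESeq2 (0.043), over a range of 0.038 to 0.40 among the alternatives. Over both weeks it passed by DESeq2 (0.011), with the GC trend removed (0.022) and without MHCII-high replicate 2 of week 4 (0.043), over a range of 0.011 to 0.17.

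Ier2, an early response gene whose product acts in the nucleus, had the opposite sign. It was 164, 163 and 223 normalized counts in MHCII-high and 248, 147 and 344 in MHCII-low libraries at 2 weeks. At 4 weeks it was 142, 144 and 98.6 against 492, 199 and 231, with no overlap. The 4-week difference was -1.16 ± 0.43 (limma adjusted p = 0.19). Over both weeks its difference passed with the GC trend removed (0.032) and by DESeq2 (0.040), over a range of 0.032 to 0.60 among the alternatives. Its values rest on 68 to 625 reads.

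Junb, Jund and Dusp1 showed no difference that passed the test. Junb, an AP-1 subunit with weaker activity than Jun, ranged from 593 to 1489 normalized counts over all libraries and differed by 0.44 ± 0.21 over both weeks (limma adjusted p = 0.22). Jund ranged from 605 to 1035 and differed by 0.12 ± 0.15 (adjusted p = 0.72). Dusp1, which dephosphorylates p38 and JNK, ranged from 9817 to 29109, and both extremes were MHCII-low libraries. Its difference was 0.20 ± 0.23 (adjusted p = 0.69).

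Counted by overlap, 4 genes (Fosb, Jun, Egr1 and Ier3) had every 2-week MHCII-high library above every MHCII-low one, where 12.9% of tested genes did. At 4 weeks this held for 3 (Egr1, Atf3 and Ier3), where 8.26% of tested genes did, and Ier2 alone was lower without overlap, where 8.13% did. With both weeks put together, no gene of the set was free of overlap, where 2.31% of tested genes were higher and 0.989% lower. For 7 of the 10 genes the group with the highest mean was an MHCII-high group. The exceptions were Fos and Ier2, highest in 4-week MHCII-low cells, and Dusp1, highest in 2-week MHCII-low cells. The share of all tested genes with their highest mean in an MHCII-high group was not computed. The count of 7 is therefore not read as a trait of the set.

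The order of the 5 group means differed between genes. For Fosb the MHCII-high groups came first, with 3133 ± 1216 at 2 weeks and 2690.3 ± 1249 at 4 weeks (mean ± SD). Control cells followed with 1614 ± 526, and the MHCII-low groups came last, with 1457 ± 692 at 4 weeks and 1109 ± 213 at 2 weeks. Jun followed the same order, from 4428 ± 1016 to 2764 ± 314. For Egr1 the MHCII-high groups also came first, with 1931 ± 138 at 2 weeks and 1617 ± 443 at 4 weeks. MHCII-low cells of week 2 followed with 1310 ± 93.9, then control cells with 1042 ± 474, and MHCII-low cells of week 4 came last with 656 ± 184. Ier3 was lowest in control cells, at 77.6 ± 25.7. Neighbours in these orders overlapped for 8 of the 10 genes. Ier2 was the exception between the 2-week and 4-week MHCII-high groups, and Ier3 between the 2-week and 4-week MHCII-low groups.

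Bleomycin against control could be asked in MHCII-low cells. The mitochondrial ribosomal share was 21.7% and 24.1% in the controls, above the 3.42% to 18.3% of the 2-week MHCII-low libraries. Of the 11 monocyte-derived macrophage markers, 8 were called higher than in control at 2 weeks and 1 at 4 weeks. The part of these cells in the results below was not tested. At 2 weeks limma called none of the 10 genes, beside 1.91% of all tested genes. None of the 10 had an unadjusted p under 0.05, where 2202 of 17390 tested genes did. Estimates ran from -0.52 ± 0.39 for Fosb to 0.90 ± 0.51 for Ier3 (adjusted p = 0.65 and 0.50). Jun was lower in all 3 libraries than in either control, where 21.6% of tested genes were, and Jund and Ier3 were higher, where 13.7% were. At 4 weeks limma again called none, beside 0.046% of all tested genes. An unadjusted p under 0.05 was found for 1065 of 17390 tested genes and for 2 of the 10. These were Atf3 at -0.86 ± 0.39 and Egr1 at -0.62 ± 0.29 (adjusted p = 0.79 and 0.80). No gene of the set was free of overlap with the controls at 4 weeks, where 11.4% of tested genes were higher and 16% lower without overlap. Neither edgeR nor DESeq2 on recovered reads called any of the 10 at either week. Over all tested genes edgeR called 306 of 17390 at 2 weeks and 2 at 4 weeks. DESeq2 called 660 of 14263 at 2 weeks and 77 of 13934 at 4 weeks. Limma with the mitochondrial share as a covariate also called none, beside 213 of 17390 tested genes at 2 weeks and 2 at 4 weeks.

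Between 2 and 4 weeks, Egr1 in MHCII-low cells came closest to a call. Its mean was 1310 at 2 weeks and 656 at 4 weeks, with no overlap between libraries, a pattern that 6.76% of tested genes showed. The difference was -1.03 ± 0.26 (limma adjusted p = 0.069). Limma called none of the 10 genes here, beside 0.857% of all tested genes. At an unadjusted p under 0.05 there were 2 of the 10, beside 1300 of 17390 tested genes. DESeq2 on recovered reads called Egr1 alone of the 10 (adjusted p = 0.015), beside 322 of 15243 genes. EdgeR called none of the 10, beside 138 of 17390 genes. The adjusted p of Egr1 ranged from 0.0073 to 0.34 over the alternatives. Ier3 also did not overlap, at -0.78 ± 0.46 (adjusted p = 0.81). In MHCII-high cells limma, edgeR and DESeq2 called none of the 10 between weeks. Over all tested genes limma called 1.07%, edgeR 112 of 17390 and DESeq2 632 of 16224. No gene of the set had an unadjusted limma p under 0.05, where 2426 of 17390 tested genes did. Ier2 alone did not overlap there, at -0.52 ± 0.43, where 9.06% of tested genes were lower without overlap. Limma called no gene at all for the interaction (0% of tested genes). No gene of the set had an unadjusted p under 0.05 there, where 987 of 17390 tested genes did.

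Across the 14 libraries, the closest pair in the set was Fosb and Jun, with Pearson's r of 0.88 on log2 values and 0.74 after the group means were taken out. Junb and Ier3 followed at 0.79 and 0.76. Egr1 and Ier3 had 0.77 over all libraries and 0.16 within groups. Fos was most like Atf3, with 0.47 over all libraries and 0.75 within groups. Ier2 had no positive value with any other gene of the set over all libraries, the highest being -0.01 with Junb, but within groups its value with Junb was 0.60. These coefficients describe libraries that share groups, depth and scaling.

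**Figure D4:**
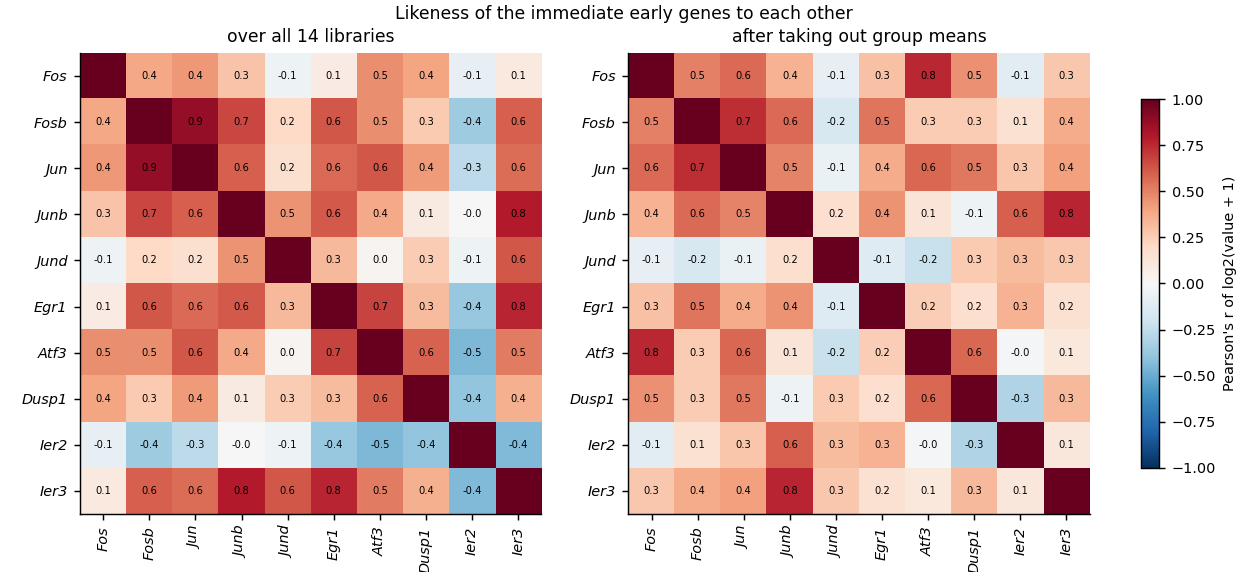
Pearson's r between the log2 levels of each pair of immediate early genes, over the 14 libraries (left) and after the group means were subtracted (right). Red is positive and blue negative. Fosb and Jun stay alike in both panels, at 0.88 and 0.74, and Ier2 is near 0 or negative to every other gene on the left.

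Outside the set, and among 11418 genes with a mean of at least 50 normalized counts, the genes most like the mean of the 10 were Ablim1 (0.89), Eri3 (0.88), Irak2 (0.87), Zfp36l1 (0.85) and Btla (0.85), over 14 libraries. For single genes the closest were Ralgps1 for Fosb (0.93), Krt80 for Jun (0.94), Runx3 for Egr1 (0.94), Nrep for Ier3 (0.93) and Raver1 for Ier2 (0.92). Cables2 was closest to Fos (0.80), 2310015A10Rik to Junb (0.86), Slc25a35 to Jund (0.88), Dnaaf3 to Atf3 (0.82) and Il15ra to Dusp1 (0.86). All are top values picked from 11418, and group means were not taken out of them. The part of the sorted fractions in these values was not tested.

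Related genes of the same response were read from lists, each as counts in the mean of both weeks beside the 5% of tested genes called higher and 2.21% lower. Among 20 other immediate early transcription regulators, 5 were called higher and 1 lower, with a median of 0.16. The Nr4a genes, which encode orphan nuclear receptors, were 3 of the 5. Nr4a3 rose 2.48 ± 0.24 (limma adjusted p = 3.9e-07), and its fractions did not overlap. It had 725 to 918 normalized counts in MHCII-high and 135 to 184 in MHCII-low libraries at week 2, and 638 to 818 against 99.2 to 145 at week 4. Nr4a2 rose 1.95 ± 0.43 and Nr4a1 rose 1.02 ± 0.25 (adjusted p = 0.0067 and 0.014), the latter call being lost without MHCII-high replicate 1 of week 2 (adjusted p = 0.052). The antiproliferative gene Btg2 rose 0.59 ± 0.15. Egr2, a relative of Egr1, fell by 0.47 (SE 0.11, adjusted p = 0.0076). At week 2 its mean was 7517 normalized counts in the MHCII-high and 11481 in the MHCII-low fraction, and at week 4 it was 9520.1 and 11951. Egr3 was also called higher (3.19 ± 0.90, adjusted p = 0.034) but was at 0 in 8 libraries and no higher than 34.1 in any, and it lost its call under 12 alternatives.

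Of 12 AP-1 and small Maf partners none was called higher, and Batf, which pairs with Jun proteins, fell by 0.72 on the log2 scale (SE 0.19, limma adjusted p = 0.019). Maff, a small Maf protein, was at -0.67 ± 0.26 (adjusted p = 0.12). Fosl2, a further Fos family gene, had group means of 11751 to 13715 normalized counts. Of 13 MAP kinase feedback inhibitors 2 were called higher, the Ras pathway inhibitor Spred1 (0.88 ± 0.18, adjusted p = 0.0035) and the JNK phosphatase Dusp16 (0.69 ± 0.18, adjusted p = 0.019). The list's median was 0.28. Of 11 genes of mRNA decay and NF-kB feedback 2 were called higher, with a list median of 0.33. They were Nfkbiz, a nuclear NF-kB cofactor (1.498 ± 0.22, limma adjusted p = 1.0e-04), and the cytokine signalling inhibitor Socs3 (0.77 ± 0.22, adjusted p = 0.035). Socs3 was also higher in MHCII-low cells at 2 weeks than in control, with 776 to 1599 normalized counts against 148 to 299.6, and lower at 4 weeks than at 2 weeks, with 263 to 376. Among 13 other inducible genes the kinase Plk2 rose 1.53 ± 0.22 (adjusted p = 8.1e-05) and the antiproliferative Tob1 fell by 0.56 on the log2 scale (SE 0.14, adjusted p = 0.014). Of 16 upstream kinases and factors 1 was called, Mapk3, which encodes ERK1, at -0.54 ± 0.11 (adjusted p = 0.0047). With the mitochondrial share as a covariate, Batf, Egr2, Egr3, Btg2, Spred1, Dusp16, Socs3, Tob1 and Mapk3 were no longer called (limma adjusted p from 0.11 to 0.32). Leaving out single libraries ended the call of Socs3 for 8 of them, of Batf for 4, of Dusp16 for 3 and of Btg2 for 2. The calls of Nr4a3, Nr4a2, Nfkbiz and Plk2 held under all 25 alternatives.

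**Figure D5:**
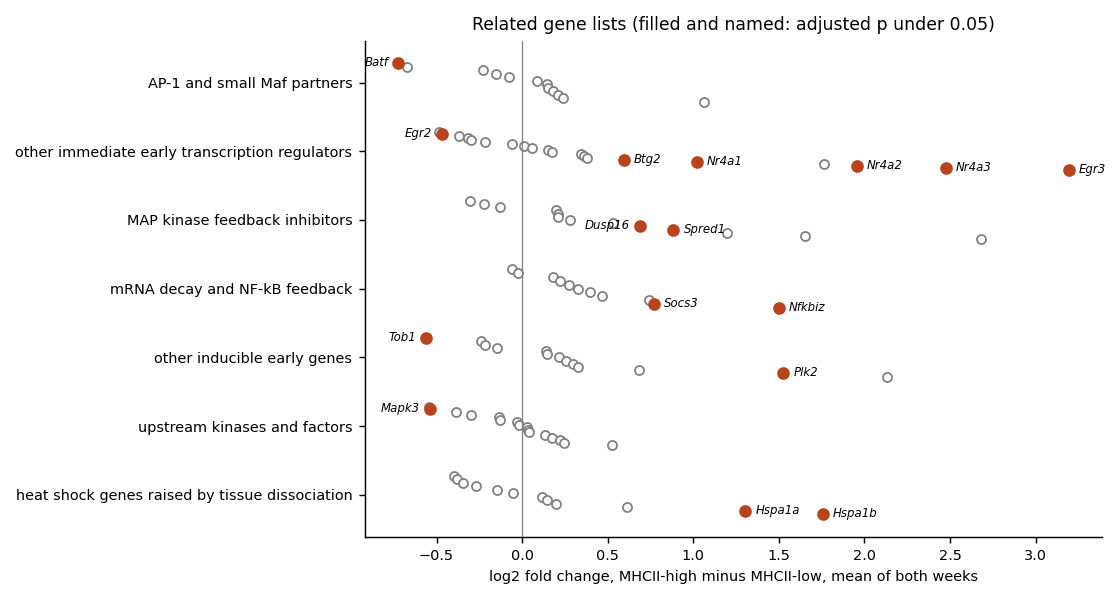
Log2 fold change of MHCII-high over MHCII-low cells, mean of both weeks, for each gene of 7 related lists. Each point is a gene, and filled, named points have a limma adjusted p under 0.05. Of the filled points Egr3 (3.19), Nr4a3 (2.48), Nr4a2 (1.95), Hspa1b (1.76), Plk2 (1.53) and Nfkbiz (1.498) lie furthest right, and Batf, Tob1, Mapk3 and Egr2 lie left of 0.

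Heat shock genes are raised by tissue digestion as immediate early genes are, and were read as a companion list. Of 12 tested, 2 were called higher in MHCII-high cells in the mean of both weeks, and none lower. They were Hspa1b (1.76 ± 0.46, limma adjusted p = 0.021) and its near-identical copy Hspa1a (1.30 ± 0.40, adjusted p = 0.049). The counting may have split their reads unevenly. The list median was 0.03, beside 0.02 for all tested genes. The summed level of the 13 listed genes at 4 weeks was 60416 to 68489 normalized counts in MHCII-high and 69554 to 73520 in MHCII-low libraries. At 2 weeks it was 54708 to 64735 against 61701 to 99042. The Hspa1a call was lost under 17 alternatives and the Hspa1b call under 5. Against control, both fell in MHCII-low cells at 2 and 4 weeks, from a control mean of 1660 normalized counts to 219 and 191 for Hspa1a and from 798 to 69.6 and 64.3 for Hspa1b. All 4 of these calls were lost when either control replicate was left out, with limma adjusted p from 0.088 to 0.198 at 2 weeks and up to 0.61 at 4 weeks. At 4 weeks the call was lost under 15 of 25 alternatives for Hspa1a and under 10 for Hspa1b. None of the 10 immediate early genes was called in those comparisons. The part of digestion and sorting in any of these levels was not tested.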

How the data were processed

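Per the file headers, the deposited table gives normalized counts per gene and library, which are a signal derived by the authors from read counts, with a percent GC and an exon length per gene that the authors deposited beside them. STAR, DESeq2 and the build mm10 are named, without versions, per the submitters' processing notes. Values were whole multiples of 1 step per library (0.39 to 2.24), whole within the rounding of 0.05 for 100% of those tested, which gave reads. Groups came from the labels. Limma 3.58.1 (trend) was fitted in R 4.3.3 on log2(value + 1) of 17390 genes, each with 10 or more normalized counts in 2 or more libraries. The 14 libraries shared 1 fit with a term for each of the groups. P-values were adjusted by Benjamini-Hochberg within a comparison, with a threshold of 0.05. Fold changes are on that scale and understate low genes. edgeR 4.0.16 and DESeq2 1.42.0 on recovered reads were alternatives: edgeR called 432, 366 and 1431 genes for high against low at 2 weeks, 4 weeks and their mean, DESeq2 1055, 898 and 2122, and limma 499, 434 and 1254. On data simulated for the 2-week comparison (16595 genes), 45% of 2-fold and 98% of 4-fold changes were recovered. The simulated spread followed a set rule of the mean level and was not fitted to these data. Changed genes had a mean of at least 50 normalized counts. Recovery may be lower for genes of wide spread, such as Fosb and Dusp1. Related genes were named by the smallest p in each list, up to 3; the 10 genes were always named. Nr4a1, Btg2, Egr3 and Fosl2 fall outside that rule and were named after their values were seen. The 10 genes and all lists were chosen with earlier results of these data known. GENCODE's GRCm38 annotation held 42462 of the genes, 90.1% with an identical span. Promoter windows are from RefSeq. A column of means in the table was not used. One lymphocyte marker and the sum of its list are not reported here.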

Additional observations from a re-analysis of the deposited data

Results flagged for a closer look

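Egr1 in MHCII-low cells lay on opposite sides of the control mean at the 2 time points. At 2 weeks the mean was 1309.8 normalized counts and all 3 libraries (1201 to 1365) lay above the control mean of 1042, while at 4 weeks the mean was 656 and all 3 (529 to 867) lay below it. The 2 controls, at 1378 and 707, lie on both sides of that mean, and neither contrast with control passed limma's test (adjusted p = 0.63 and 0.80). The direct comparison of 4 with 2 weeks, which tests the difference between both contrasts, gave -1.03 ± 0.26 (limma adjusted p = 0.069).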

How the results depend on the processing

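The 30 high-against-low differences of the 10 genes were recomputed under 25 alternatives each. None of the 5 calls changed sign, and 22 of the 30 never did. For the count of genes called (1 at 2 weeks, 1 at 4 weeks, 3 over both, 0 for MHCII-low cells between weeks), dropping the filter on low values gave 0 at 2 weeks. DESeq2 gave 2 at 2 weeks, 3 at 4 weeks, 6 over both (5 higher and 1 lower) and 1 between weeks, and over all genes it called 1055 of 15566, 898 of 16224, 2122 of 16224 and 322 of 15243, against 499, 434, 1254 and 149 of 17390 by limma. Removing the trend with GC gave 2 at 4 weeks, 5 over both (4 higher and 1 lower) and 1 between weeks. The mitochondrial share as a covariate gave 2 at 4 weeks and 4 over both, where Atf3 was added, and at 2 weeks it gave 1 gene, Jun in place of Fosb. Leaving out 1 library gave 0 to 2 at 2 weeks, 1 to 2 at 4 weeks, 2 to 4 over both, and 0 to 1 between weeks, where leaving out either control replicate, MHCII-low replicate 1 or MHCII-high replicate 3 at 4 weeks gave the call of Egr1.

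The GC trend removal moved the median of all genes from 0.08 to -0.26 at 2 weeks and from 0.02 to -0.15 over both, and turned the split of all calls at 2 weeks from 398 higher of 499 to 355 of 1592, and over both weeks from 870 and 384 to 666 and 1168. Over both weeks the split was 824 and 607 by edgeR and 435 and 65 with the mitochondrial covariate, and at 2 weeks it was 297 and 135 by edgeR and 188 and 19 with the covariate. The covariate left 267 and 33 at 4 weeks, from 341 and 93.

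Signs turned only in differences that had not passed. With the GC trend removed, Fos was -0.116 at 2 weeks, 0.0598 at 4 weeks and -0.0280 over both, and at 2 weeks Jund was -0.0677, Atf3 -0.0689 and Atf7 -0.108. Fos was 0.143 at 4 weeks with the mitochondrial covariate and -0.0064 over both by edgeR. Dusp1 at 2 weeks was 0.0142 on library totals and 0.478 with the covariate. Without 1 library, Fos ranged from -0.109 to 0.435 at 2 weeks, from -0.294 to 0.166 at 4 weeks and from -0.0755 to 0.197 over both. Dusp1 ranged from -0.502 to 0.330 at 2 weeks and from -0.0219 to 0.394 over both, Atf3 from -0.0016 to 0.565 at 2 weeks, and Jund from -0.0258 to 0.217 at 4 weeks. Egr1 at 2 weeks against control was -0.0755 without control replicate 3 and 0.887 without control replicate 1. The causes were not tested.

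Replicate numbers are shared by the groups, but the labels do not say that a number marks an animal or a day, and same-numbered MHCII-high and MHCII-low libraries deviated together with correlations of 0.009 to 0.107. The replicate block gave 2 called genes at 2 weeks (Fosb and Jun) and 1 between weeks in MHCII-low cells, and changed no other count of called genes by over 1.5 times. Of the 6 MHCII-high libraries, 4 correlated best with their own number. Of 33 calls among related genes, 23 were lost under at least 1 alternative and none changed sign. Depth limits Ier2 and Ier3 most, with counting errors of up to 12.1% and 12.8% of a value.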
